A study of Rattus norvegicus with 16 samples.

Results

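The 8 genes described here encode the enzymes, the transporter and the oxygen store that buffer energy supply in a working muscle fibre: the creatine kinases Ckm, Ckmt2 and Ckb, the creatine transporter Slc6a8, adenylate kinase 1 (Ak1), the AMP deaminases Ampd1 and Ampd3, and myoglobin (Mb). They were chosen by name. Of the 31141 genes in the expression table, 7 matched by symbol, and Ak1 was found by its gene description because its row carries a clone name in place of the symbol. Messenger RNA was measured by sequencing in 16 libraries from the tibialis anterior, a fast muscle of the lower leg, of rats on the Wistar-Imamichi background. Wild-type rats on a normal diet gave 4 libraries (WT_ND). Rats mutant for Dmd, the dystrophin gene whose loss causes Duchenne muscular dystrophy, gave 6 libraries on the same normal diet (DMD_ND) and 6 libraries on a diet labelled MCTKD (DMD_KD). Diets began at weaning and ended at 9 months of age. The labels do not spell MCTKD out; the usual reading is a ketogenic diet rich in medium-chain triglycerides. The labels do not name the Dmd allele, and no wild-type animals received the MCTKD diet, so an effect of the diet could be read only in mutant muscle. Whether the libraries are from different animals is not stated, and the p-values therefore cover only the spread among these libraries, part of which may be technical.

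Phosphocreatine is the fastest reserve of ATP in muscle. Mitochondrial creatine kinase loads it, cytosolic creatine kinase spends it beside the myofibrils, and the creatine that both need enters the fibre through the transporter. When ATP use outruns supply, adenylate kinase joins 2 ADP into ATP and AMP, AMP deaminase removes the AMP as IMP, and myoglobin holds oxygen for the mitochondria. Ckm, Ckmt2, Ak1, Ampd1 and Mb are the forms of the mature fibre, whereas Ckb and Ampd3 are best known from other tissues and from immature muscle.

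Promoters are shown for 4 of the 8 genes because they stand for the opposite directions of the results: Ckm, Ampd1 and Mb were lower in mutant muscle and Ckb was higher. The sequences are RefSeq's, build GRCr8, and run from 250 bases before to 50 bases after the gene start, 5′ to 3′ on the gene's strand. Capitals mark the letters CANNTG (the E-box core read by myogenic factors such as MyoD) and TATAAATA (a MEF2-like TATA box).
Ckm, chr1:88189211-88189510 (+ strand): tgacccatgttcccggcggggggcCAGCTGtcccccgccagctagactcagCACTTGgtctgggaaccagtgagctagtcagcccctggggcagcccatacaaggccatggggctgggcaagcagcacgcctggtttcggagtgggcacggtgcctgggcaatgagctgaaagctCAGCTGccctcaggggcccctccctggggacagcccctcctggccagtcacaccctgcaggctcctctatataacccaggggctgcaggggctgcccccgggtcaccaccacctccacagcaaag
Ampd1, chr2:193287082-193287381 (+ strand): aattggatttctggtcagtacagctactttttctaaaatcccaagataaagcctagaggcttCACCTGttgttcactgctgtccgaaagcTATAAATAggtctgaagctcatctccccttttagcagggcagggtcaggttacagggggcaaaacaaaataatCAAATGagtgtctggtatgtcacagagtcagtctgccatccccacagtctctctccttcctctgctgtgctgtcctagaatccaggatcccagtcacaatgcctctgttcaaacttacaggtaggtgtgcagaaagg
Mb, chr7:110647693-110647992 (- strand): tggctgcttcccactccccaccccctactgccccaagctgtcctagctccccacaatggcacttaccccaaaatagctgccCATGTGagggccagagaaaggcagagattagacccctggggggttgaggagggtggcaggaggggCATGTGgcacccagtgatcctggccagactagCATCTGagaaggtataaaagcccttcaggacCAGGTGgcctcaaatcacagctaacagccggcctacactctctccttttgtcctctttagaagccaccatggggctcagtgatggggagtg
Ckb, chr6:136553415-136553714 (- strand): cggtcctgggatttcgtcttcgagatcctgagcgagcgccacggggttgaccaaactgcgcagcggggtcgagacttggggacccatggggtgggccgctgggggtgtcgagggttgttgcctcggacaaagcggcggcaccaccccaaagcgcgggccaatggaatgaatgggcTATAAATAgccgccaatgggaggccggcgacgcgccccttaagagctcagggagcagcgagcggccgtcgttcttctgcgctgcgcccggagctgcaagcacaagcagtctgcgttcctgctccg
Both strands were searched, and no match of one motif overlapped a match of the other. The Ckm window held 3 E-box cores, at 226, 199 and 75 bases before the start, the Mb window held 4 and the Ampd1 window held 2. The Ckb window held no E-box core and 1 TATAAATA, at 75 bases before the start. Ampd1 also held 1 TATAAATA, at 160 bases before the start. Among the 6 members with a promoter sequence, Ckmt2 held 2 E-box cores and Slc6a8 held 1. CANNTG occurred in 72.1% of all 33469 promoters of this length and TATAAATA in 1.8%, so the first is common and the second rare. The half-site AAGGTCA, read by oestrogen-related receptors, was in none of the 6 windows and in 4.61% of all promoters. A match describes letters only.

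Expression is given as FPKM, fragments per kilobase of gene length, scaled for library depth, as deposited. The reads behind each value were recovered from the whole-number steps of the table (100% of values came out whole within 0.05), and their total was 17125084 to 28116085 per library. Dmd itself was lower in every mutant library (0.546 to 2.04 FPKM) than in every wild-type library (4.13 to 11.9 FPKM). All 13 genes of a fast fibre marker list were measured, with summed levels of 75326 to 132397 FPKM in WT_ND, 37414 to 59462 in DMD_ND and 45206 to 139756 in DMD_KD, so the libraries carried the markers of the labelled tissue. Between DMD_ND and WT_ND, 11 of those 13 were lower and 0 higher as deposited, against 2 lower and 2 higher when every library was scaled to the same total. At that equal total 720 of all 12119 tested genes were lower and 8564 higher. Over the same libraries, as deposited, 15 of 15 macrophage markers, 10 of 11 connective tissue markers, 7 of 7 adipocyte markers and 7 of 11 markers of regenerating fibres were higher in DMD_ND. Of the regenerating fibre markers 1 was lower, and of 8 endothelial markers 2 were higher and 2 lower. Among all tested genes 31.5% were higher and 34.3% lower as deposited. In whole muscle, fewer mature fibres and less RNA per fibre cannot be told apart. One library stood apart: DMD_KD replicate 3 had the highest fibre marker sum of all 16 libraries and the lowest weight when limma estimated library quality (0.129). The next lowest weights were those of WT_ND replicates 4 (0.238) and 1 (0.283), and the highest was 2.42. Several results that DMD_KD replicate 3 moves are given with and without it.

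Mutant muscle on the normal diet had less message for 5 of the 8 genes (Ckm, Ckmt2, Ak1, Ampd1 and Mb) and more for 2 (Ckb and Ampd3), while Slc6a8 did not pass the test. Differences were tested with limma on log2(FPKM + 1) over 12119 genes, with Benjamini-Hochberg adjustment and a threshold of 0.05. All fold changes below are on that scale, which understates changes of low genes. The background was high, since 65.7% of all tested genes passed in this comparison, 34.3% lower and 31.5% higher, so 7 of 8 members passing is only somewhat above the share of all genes. The groups did not overlap for 7 members, 5 below and 2 above, and for 55.1% of tested genes. The median log2 fold change of the members was -1.33, beside -0.04 for all tested genes.

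**Figure D1:**
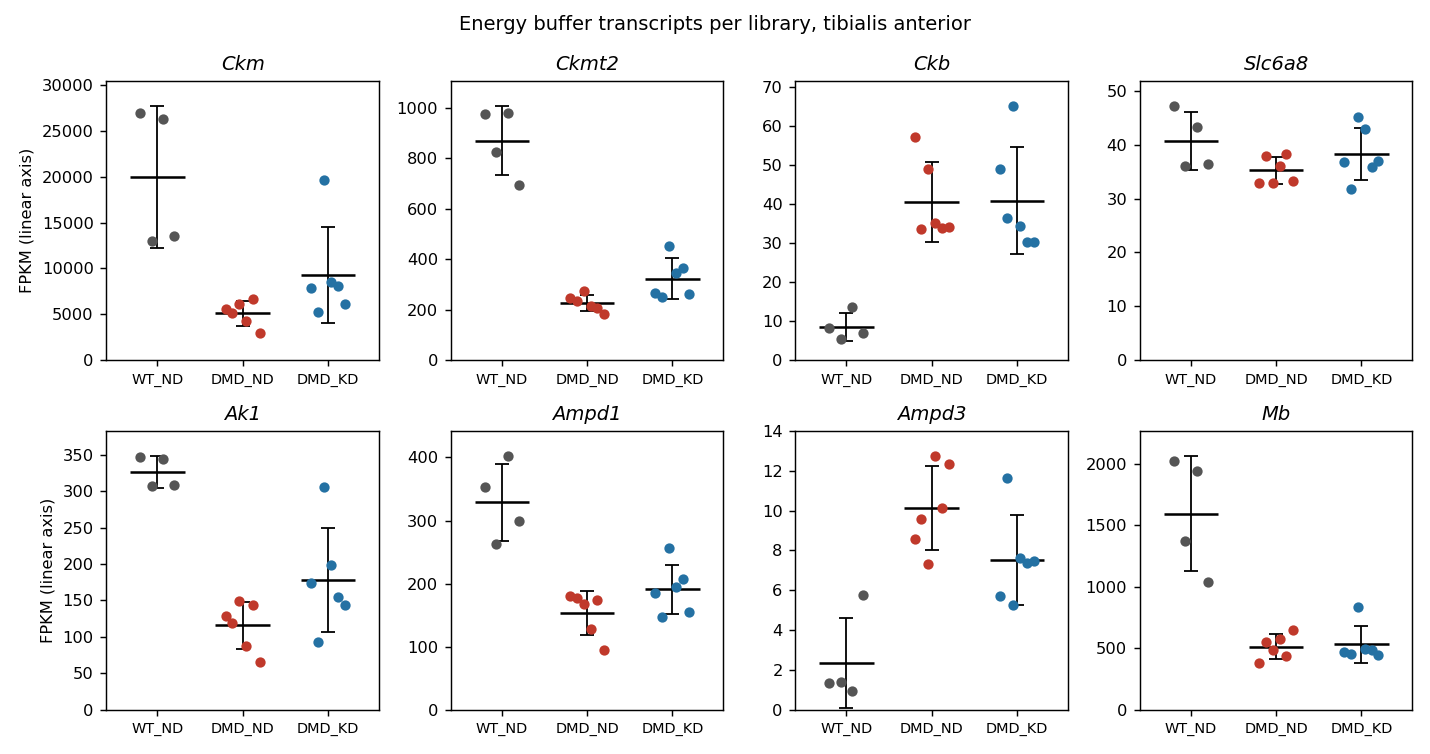
Level of each of the 8 transcripts in FPKM (vertical axes, linear, starting at 0) in every library of the 3 groups (horizontal axes). Points are libraries, the wide bar is the mean and the whiskers are 1 SD (4 libraries in WT_ND, 6 in each mutant group). All WT_ND points lie above all DMD_ND points for Ckm, Ckmt2, Ak1, Ampd1 and Mb and below them for Ckb and Ampd3.

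Ckm, the cytosolic muscle creatine kinase, was one of the most abundant nuclear transcripts of this muscle and fell about 3.80-fold in mutant muscle. It ranked second among nuclear genes in every wild-type library, between ranks 4 and 6 in DMD_ND and between 3 and 4 in DMD_KD. The gene (ENSRNOG00000016837) lies at chr1:79061456-79071720 on the + strand of mRatBN7.2. Its level was 27005, 13044, 26292 and 13502 FPKM in WT_ND replicates 1, 3, 4 and 9. In DMD_ND it ran from 2941 over a median of 5387 to 6677 FPKM. In DMD_KD it ran from 5236 over a median of 7956 to 19679.9 FPKM. The wild-type libraries fell into a higher and a lower pair, all above every DMD_ND library. The top DMD_KD value belonged to replicate 3, which overlapped the wild-type range, while the other DMD_KD libraries lay at or below 8522 FPKM and did not. Relative to WT_ND, Ckm in DMD_ND differed on the log2 scale by -1.93 (SE 0.34, limma adjusted p = 8.68e-05). The 3′ end of Ckm overlaps Mark4 on the other strand (79068904 to 79071720), whose own level was 2.71 to 5.79 FPKM, and the sources used here do not say whether counting used strand.

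Ckmt2, the creatine kinase of muscle mitochondria, fell as far as Ckm. The gene (ENSRNOG00000055450) lies at chr2:23079918-23110430 on the - strand. WT_ND replicates 1, 3, 4 and 9 held 977, 826, 979 and 694 FPKM. DMD_ND libraries held 181 to 273 FPKM, with a median of 224, and DMD_KD libraries 251 to 453 FPKM, with a median of 305. No mutant library on either diet reached the wild-type range. The log2 difference of DMD_ND from WT_ND was -1.93 (SE 0.18, adjusted p = 8.16e-08 by limma). Within a library the mitochondrial and cytosolic forms kept a similar proportion: the log2 ratio of Ckmt2 to Ckm averaged -4.45 ± 0.39 (SD, n = 4) in WT_ND and -4.45 ± 0.32 (n = 6) in DMD_ND, a difference of -0.01 (exact two-sided permutation p = 0.981).

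Ckb, the creatine kinase first described in brain and also made in immature muscle, smooth muscle and other cells, moved the other way and was 4.49-fold higher in mutant muscle. The gene (ENSRNOG00000010872) lies at chr6:130729423-130732315 on the - strand. WT_ND replicates 1, 3, 4 and 9 held 8.08, 5.40, 13.6 and 6.88 FPKM, from 128 to 270 reads each. DMD_ND libraries held 33.6 to 57.4 FPKM (median 34.6, 1232 to 2087 reads) and DMD_KD libraries 30.3 to 65.1 FPKM (median 35.3). Every mutant library was above every wild-type library. This amounted to a log2 difference of 2.17 (SE 0.24, limma adjusted p = 7.90e-07).

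With Ckb higher and Ckm lower, the balance between the creatine kinase forms necessarily differed by more than either gene alone. Of the summed creatine kinase FPKM, Ckb made up 0.0415% ± 0.0097 (SD, n = 4) in wild-type libraries. Its share was 0.785% ± 0.217 (n = 6) in DMD_ND, and the MCTKD group had 0.466% ± 0.136 (n = 6). Ckm still held 95.5%, 94.8% and 95.8% of it in the 3 groups, so the muscle form dominated throughout. Put as a ratio, wild-type libraries held 1935 to 3340 Ckm FPKM for each Ckb FPKM and DMD_ND libraries 86.4 to 197. The log2 ratio of Ckb to Ckm was 4.09 higher in DMD_ND than in WT_ND, with all 6 DMD_ND libraries above all 4 of WT_ND. The exact two-sided permutation p was 0.00476, the smallest that 4 against 6 libraries can give (adjusted p = 0.0171 over 18 ratio comparisons). Both genes already separated these groups in opposite directions, so this ratio had to separate them too. Its p therefore adds no evidence beyond the results of the single genes. Cells that can carry Ckb moved with it: the summed macrophage markers were 28.3 to 66.5 FPKM in WT_ND and 381 to 642 in DMD_ND, and the summed regenerating fibre markers 116 to 197 and 289 to 450. Summed smooth muscle markers overlapped between the groups (153 to 189 and 158 to 207 FPKM), as 6 of 10 were higher and 1 lower. Summed nerve and Schwann cell markers were 20.1 to 31.9 FPKM in WT_ND and 39.6 to 84.5 in DMD_ND, with 2 of 7 tested markers higher and 0 lower. At an equal total 7 were higher, where 8564 of all 12119 tested genes were higher and 720 lower. The part of any of these in the Ckb result was not tested.

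Slc6a8, the transporter that brings creatine into the fibre, showed no difference that passed the test as deposited. The gene (ENSRNOG00000057620) lies at chrX:151384675-151393979 on the + strand. WT_ND replicates 1, 3, 4 and 9 held 47.1, 36.1, 43.3 and 36.4 FPKM. DMD_ND libraries held 32.9 to 38.2 FPKM (median 34.6) and DMD_KD libraries 31.8 to 45.1 FPKM (median 36.9). All 3 groups overlapped, and over all 16 libraries the coefficient of variation was 12.1%, the smallest of the 8 members and well under the 73.3% of Ckm. The log2 difference of DMD_ND from WT_ND was -0.20 (SE 0.12, 95% interval -0.44 to 0.04, adjusted p = 0.141 by limma). The log2 ratio of Slc6a8 to Ckm was 1.73 higher in DMD_ND (exact two-sided permutation p = 0.00476, adjusted p = 0.0171), with no overlap between those groups.

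Adenylate kinase 1, the cytosolic form that dominates in fast muscle, fell 2.91-fold. Its row (ENSRNOG00000049056) lies at chr3:15912485-15923041 on the + strand. As deposited, the wild-type values were the tightest of any member, 347, 306, 344 and 308 FPKM in replicates 1, 3, 4 and 9, a coefficient of variation of 6.70%. Scaled to the same total per library, Ak1 was 409 ± 67.7 (SD, n = 4) in WT_ND, beside 1072 ± 80.6 for Ckmt2, and was no longer the tightest. DMD_ND libraries held 66.1 to 149 FPKM (median 124) and DMD_KD libraries 92.7 to 305.5 FPKM (median 164). No DMD_ND library came near the wild-type range, and the top DMD_KD library, replicate 3, stopped just below its lowest value of 306.5 FPKM. On the log2 scale DMD_ND differed from WT_ND by -1.54 (SE 0.27, limma adjusted p = 8.35e-05). Among the adenylate kinases listed here, Ak1 held 82.4% ± 0.90 (SD, n = 4) of the summed FPKM in wild-type libraries. In the mutant groups it held 64.4% ± 7.05 (n = 6) on the normal diet and 70.8% ± 6.92 (n = 6) on MCTKD. Of the other adenylate kinases, 3 of 8 passed the filter on low values and 1 of these was called: Ak6 was lower (log2 -0.66, SE 0.11, adjusted p = 6.82e-05).

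The AMP deaminases split by form. Ampd1, the form of mature muscle that feeds the purine nucleotide cycle, fell 2.16-fold, and Ampd3, known from red blood cells and from wasting or denervated muscle, was 3.74-fold higher. Ampd1 (ENSRNOG00000018656) lies at chr2:190598700-190619938 on the + strand. Its level in WT_ND replicates 1, 3, 4 and 9 was 353, 262, 402 and 299 FPKM. DMD_ND libraries held 94.0 to 181 FPKM (median 171) and DMD_KD libraries 147 to 256 FPKM (median 189.9). Every mutant library was below every wild-type library, the nearest being 256 FPKM in DMD_KD and 262 in WT_ND. The log2 difference of DMD_ND from WT_ND was -1.11 (SE 0.20, adjusted p = 0.000119 by limma).

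Ampd3 (ENSRNOG00000018262) lies at chr1:164885320-164929887 on the + strand and was the least abundant member. WT_ND replicates 1, 3, 4 and 9 held 1.36, 1.38, 0.941 and 5.74 FPKM, from 58 to 419 reads. DMD_ND libraries held 7.32 to 12.7 FPKM (median 9.86) and DMD_KD libraries 5.27 to 11.6 FPKM (median 7.41). Replicate 9 stood far above the other wild-type libraries, below every DMD_ND library but inside the DMD_KD range. The log2 difference of DMD_ND from WT_ND was 1.90 (SE 0.28, limma adjusted p = 1.37e-05), and 2.30 (SE 0.20) without that library. For markers of red blood cells, which also make Ampd3, the sum was 45.0 to 113 FPKM in WT_ND and 23.2 to 38.6 in DMD_ND, with both of the 2 tested markers lower as deposited, and neither called at an equal total, centred on the fibre markers, with a replicate block or with library weights. Of the summed AMP deaminase FPKM, Ampd3 made up 0.384%, 0.522% and 0.233% in WT_ND replicates 1, 3 and 4 and 1.88% in replicate 9. Its share in DMD_ND was 6.49% ± 2.85 (SD, n = 6), and the log2 ratio of Ampd3 to Ampd1 was 3.01 higher (exact two-sided permutation p = 0.00476, adjusted p = 0.0171). Here too both genes already separated these groups in opposite directions, so the ratio was bound to separate them.

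Mb, the oxygen-binding protein of oxidative fibres and heart, fell 3.04-fold. The gene (ENSRNOG00000004583) lies at chr7:108759904-108767383 on the - strand. WT_ND replicates 1, 3, 4 and 9 held 2025, 1373, 1939 and 1042 FPKM. DMD_ND libraries held 378 to 648 FPKM (median 518) and DMD_KD libraries 446 to 834 FPKM (median 479). Every mutant library was below every wild-type library, and apart from replicate 3 the DMD_KD libraries lay within 446 to 495 FPKM. In log2 terms DMD_ND differed from WT_ND by -1.61 (SE 0.22, adjusted p = 6.77e-06 by limma). The summed markers of slow oxidative fibres, the fibres richest in myoglobin, were 1787 to 3227 FPKM in WT_ND and 801 to 1227 in DMD_ND, with 6 of 10 lower and 2 higher. That count turned to 2 lower and 5 higher both at an equal total and centred on the fast fibre markers. All tested genes split into 720 lower and 8564 higher on the first of these scales, and 351 lower and 9335 higher on the second. The part of slow oxidative fibres in the Mb result was not tested. The length behind the Mb values was 6027 bases, 80.6% of its 7480 base locus, against 14.1% for Ckm, so the level of Mb relative to other genes depends on that annotation, while differences between groups do not. The log2 ratio of Mb to Ckm did not differ between DMD_ND and WT_ND beyond the spread (difference 0.32, exact two-sided permutation p = 0.438).

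**Figure D2:**
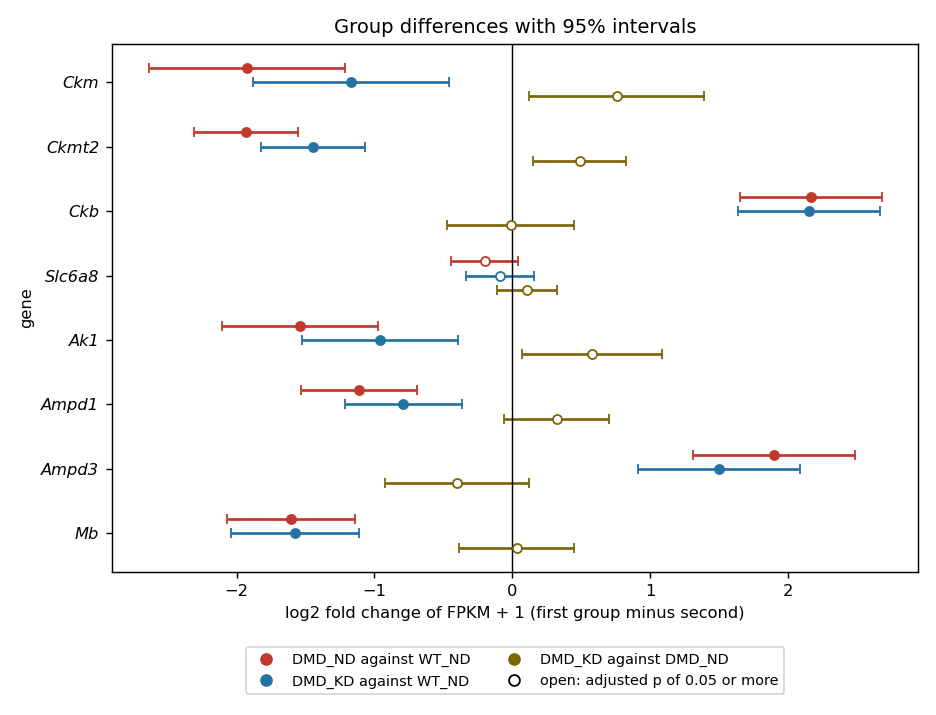
Log2 fold change of FPKM + 1 (horizontal axis) for the 8 genes (vertical axis) in the 3 comparisons, with 95% intervals as whiskers. Filled points passed limma's test at an adjusted p of 0.05 and open points did not. The 2 comparisons with WT_ND point the same way for every gene, and no point of DMD_KD against DMD_ND is filled.

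On the MCTKD diet, 0 of 8 members passed limma's test against mutant muscle on the normal diet, where 0.00825% of tested genes, 1 in all, passed. At an unadjusted p under 0.05, 3 members were higher in DMD_KD (Ckm, Ckmt2 and Ak1), beside 6.65% of tested genes in that direction. No member separated the 2 mutant groups, as 1.48% of tested genes did. The median log2 difference was 0.22 over the members and -0.01 over all tested genes. With a weight per library 0 members passed as well, while 93 genes in all did.

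For Ckmt2 the log2 difference of DMD_KD from DMD_ND was 0.49 (SE 0.16, adjusted p = 0.232 by limma) and 0.38 without DMD_KD replicate 3, with 3 of the 6 DMD_KD libraries above the highest DMD_ND library. For Ckm it was 0.76 (SE 0.30, adjusted p = 0.282 by limma) and 0.51 without DMD_KD replicate 3. For Ak1 it was 0.58 (SE 0.24, adjusted p = 0.301 by limma) and 0.41 without that library. None of these is a call, and their size depended on the scaling. At an equal total the differences were 0.22 for Ckmt2, 0.49 for Ckm and 0.31 for Ak1. Centred on the fast fibre markers they were 0.04 for Ckmt2, 0.31 for Ckm and 0.13 for Ak1. The fast fibre markers themselves had a median log2 difference of 0.46 with 0 of 13 called, and 0.30 without DMD_KD replicate 3, and their part was not tested.

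As deposited, Ckb and Mb had the smallest differences between the mutant groups. The log2 difference was -0.01 for Ckb (95% interval -0.47 to 0.45) and 0.03 for Mb (95% interval -0.38 to 0.45), so differences within those bounds could not be resolved. Both were lower in DMD_KD under the other scalings, without a call: Ckb by -0.28 and Mb by -0.24 at an equal total, and Ckb by -0.46 (95% interval -0.86 to -0.06) and Mb by -0.42 (95% interval -0.81 to -0.03) centred on the fibre markers. For Ampd1 it was 0.32 (95% interval -0.06 to 0.70), for Ampd3 -0.40 (95% interval -0.93 to 0.12) and for Slc6a8 0.11 (95% interval -0.11 to 0.33).

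Set against wild-type muscle, MCTKD-fed mutant muscle showed the same 7 members past the test, 5 lower and 2 higher, where 58.3% of tested genes passed, 31.1% lower and 27.3% higher. This comparison shares its mutant or its wild-type libraries with each of the others, so the 3 are not independent. Groups did not overlap for 5 members, 4 below (Ckmt2, Ak1, Ampd1 and Mb) and 1 above (Ckb), beside 37.2% of tested genes. Ckm differed by -1.17 (SE 0.34, adjusted p = 0.00693), and by -1.42 without DMD_KD replicate 3, by limma. Ckmt2 differed by -1.45, Ak1 by -0.96, Ampd1 by -0.79 and Mb by -1.57. Ckb differed by 2.16 and Ampd3 was 2.83-fold higher, and Slc6a8 did not pass the test (-0.09, 95% interval -0.33 to 0.15). The log2 ratio of Ckb to Ckm was 3.32 higher than in WT_ND and that of Ampd3 to Ampd1 2.29 higher (exact two-sided permutation p = 0.00476 each, adjusted p = 0.0171). That of Slc6a8 to Ckm was 1.08 higher and not called (exact two-sided permutation p = 0.0238, adjusted p = 0.0536). Without DMD_KD replicate 3 this last difference was 1.28 and was called (adjusted p = 0.0238 by the permutation test).

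Between the mutant groups the log2 ratio of Ckb to Ckm was 0.77 lower on the MCTKD diet (exact two-sided permutation p = 0.0173, adjusted p = 0.0519), just short of the threshold. That of Slc6a8 to Ckm was 0.65 lower (exact permutation p = 0.0238, adjusted p = 0.0536), a difference that shrank to -0.45 without DMD_KD replicate 3. That of Mb to Ckm was 0.73 lower (exact permutation p = 0.0325, adjusted p = 0.0649). These ratios share Ckm as their denominator, and none of them passed. When 1 library was left out, Ckb to Ckm ranged from -0.90 to -0.66, Slc6a8 to Ckm from -0.73 to -0.45 and Mb to Ckm from -0.85 to -0.51. The highest adjusted p of these permutation tests was 0.0835, 0.117 and 0.157 in the same order. Of 18 ratio comparisons 5 passed, and all 5 set a mutant group against WT_ND. Leaving out DMD_KD replicate 10 made 10 pass and leaving out DMD_ND replicate 7 made 9 pass. In both cases the ratio of Ckb to Ckm between the mutant groups was among them, at -0.88 and -0.90. That ratio also passed without DMD_KD replicate 1 (-0.85), but not when any other mutant library was left out.

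**Figure D3:**
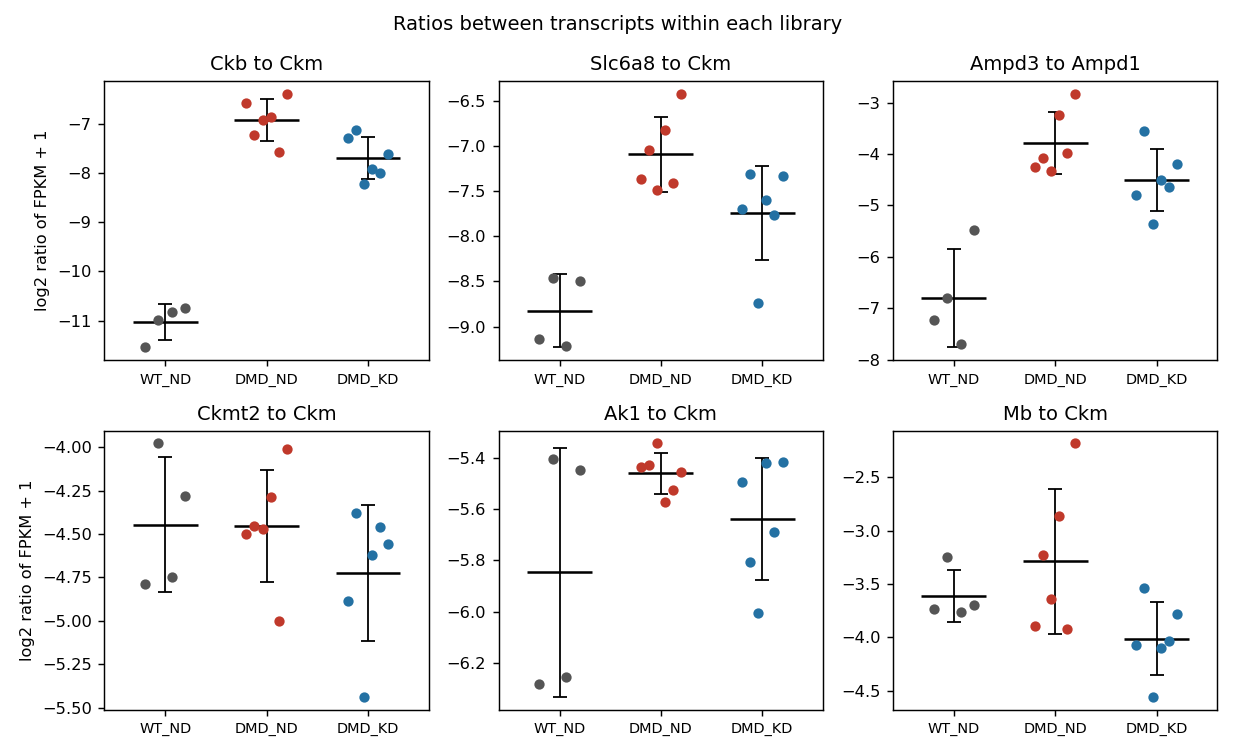
Log2 ratio of FPKM + 1 between 2 transcripts of the same library (vertical axes, each with its own range) in the 3 groups (horizontal axes). Points are libraries, wide bars are means and whiskers are 1 SD. Ckb to Ckm, Slc6a8 to Ckm and Ampd3 to Ampd1 separate WT_ND from DMD_ND without overlap, whereas Ckmt2 to Ckm, Ak1 to Ckm and Mb to Ckm overlap.

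The size of the falls, and for 2 genes the direction, depended on how libraries were put on a common scale. The deposited values hold the typical gene level between libraries, and the median tested gene moved by -0.04 between DMD_ND and WT_ND. Scaled to an equal total per library, which counts each transcript as a share of all messages, the median tested gene moved by 0.83, and all genes split into 8564 higher and 720 lower in place of 3815 and 4152. On that scale Ckm was lower by -0.91 (adjusted p = 0.000741), Ckmt2 by -0.92, Mb by -0.59 and Ak1 by -0.53, all still called by limma, and Ckb was higher by 3.20 and Ampd3 by 2.91. Ampd1 was then nearly level (-0.10, adjusted p = 0.530 by limma), and Slc6a8 was higher and called (0.80, adjusted p = 5.05e-06 by limma), as its mean level was 50.5 ± 5.69 TPM (SD, n = 4) in WT_ND and 88.5 ± 6.75 TPM (n = 6) in DMD_ND, TPM being FPKM rescaled here to the same total in each library. The members split into 4 lower and 3 higher in place of 5 and 2. Centred on the fast fibre markers, which asks for the level per unit of fibre message, the median tested gene moved by 1.08 and all genes split into 9335 higher and 351 lower. The members again split into 4 lower and 3 higher: Ckm was lower by -0.82, Ckmt2 by -0.82, Mb by -0.49 and Ak1 by -0.43, Ampd1 was level (0.001, adjusted p = 0.992 by limma) and Slc6a8 was higher by 0.91 (adjusted p = 0.000146 by limma). Relative to the mean of the fibre markers, then, Ckm, Ckmt2, Mb and Ak1 fell in mutant muscle, and Ampd1 did not pass the test. Of the 13 markers themselves, 2 were still called lower and 2 higher on this scale.

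For DMD_KD against WT_ND all genes split into 3304 higher and 3764 lower as deposited, 6930 and 573 at an equal total, and 5687 and 409 centred on the fibre markers. The equal total left 5 members called, 2 lower (Ckmt2 and Mb) and 3 higher (Ckb, Ampd3 and Slc6a8 at 0.64), while Ckm (-0.42, adjusted p = 0.0819), Ak1 (-0.22) and Ampd1 (-0.05) did not pass limma's test. Centred on the fibre markers 6 members were called, 3 lower (Ckm at -0.50, Ckmt2 at -0.78 and Mb at -0.91) and 3 higher. The signs of Ckm, Ckmt2, Ckb, Ak1, Ampd3 and Mb against wild-type were the same under all 3 scalings. Between the mutant groups 0 members were called under any of the 3, and Slc6a8 and Mb changed sign, as did Ampd1 when centred on the fibre markers.

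**Figure D4:**
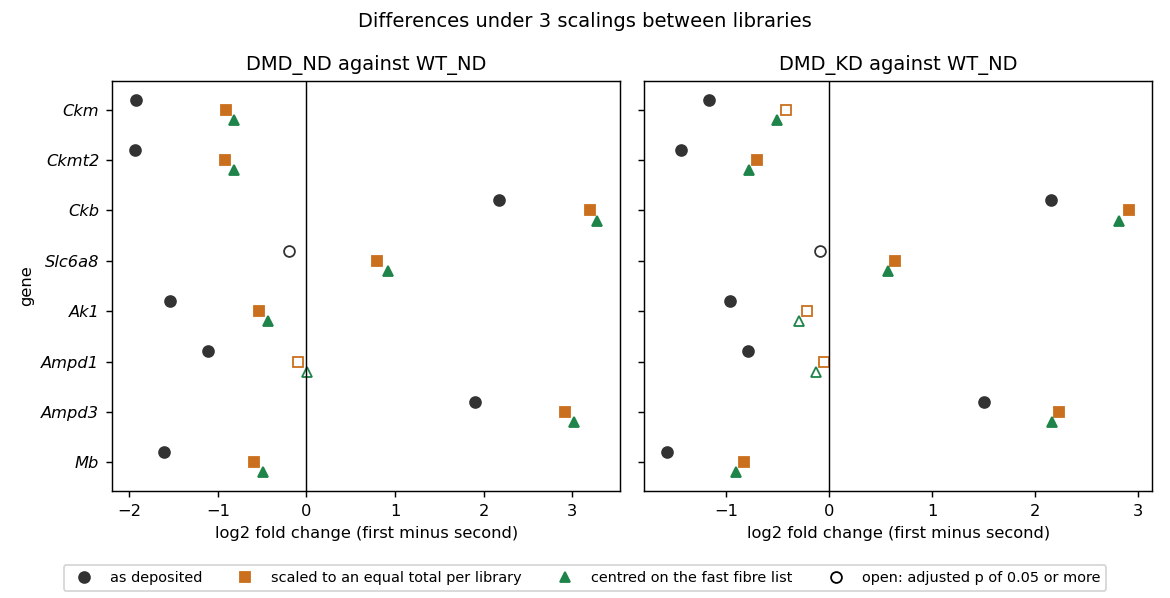
Log2 fold change (horizontal axes) of the 8 genes (vertical axis) against WT_ND for the mutant group on the normal diet (left) and on the MCTKD diet (right) under 3 scalings between libraries: as deposited (circles), equal total (squares) and centred on the fast fibre list (triangles). Filled symbols passed limma's test at an adjusted p of 0.05. The falls shrink and the rises grow under both other scalings, and Slc6a8 crosses from just below 0 to above it.

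Genes that make creatine or work beside mitochondrial creatine kinase moved in both directions in DMD_ND against WT_ND. The background for this and the next lists was 34.3% lower and 31.5% higher among all 12119 tested genes as deposited. At an equal total 720 of all tested genes were lower and 8564 higher. Of the 9 tested genes of the creatine list, 6 were lower and 2 higher, and 3 were lower and 3 higher at an equal total. Gatm, the first enzyme of creatine synthesis, was among the higher ones, with a wild-type mean of 0.946 ± 0.24 FPKM (SD, n = 4), against 13.2 ± 1.35 (n = 6) for mutants on the normal diet and 9.24 ± 1.91 (n = 6) on MCTKD. Its log2 difference was 2.87 (SE 0.14, limma adjusted p = 8.80e-11), larger than that of Ckb. Opa1, which shapes the inner mitochondrial membrane, was lower by -1.66 and Vdac1, the outer membrane channel that passes metabolites to and from Ckmt2, by -1.62.

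In the purine nucleotide cycle and AMP breakdown list 6 of 11 tested genes were higher and 5 lower, and 6 and 3 at an equal total. Adssl1, the muscle adenylosuccinate synthetase, went from 882 ± 255 FPKM (SD, n = 4) in WT_ND to 224 ± 41.0 (n = 6) in DMD_ND. Its log2 difference was -1.95 (SE 0.24, adjusted p = 1.75e-06 by limma). Ampd2, the deaminase of non-muscle cells, was higher by 1.17 (1.14 to 3.77 FPKM on average), and adenosine kinase (Adk) was lower by -1.15, a call that ended at an equal total (-0.18, adjusted p = 0.16 by limma) and when centred on the fibre markers (-0.04, adjusted p = 0.853). In the purine salvage and end product list 5 of 9 were higher and 3 lower, and 6 and 1 at an equal total, led by Pnp (1.53), Xdh (1.54) and Impdh1 (1.34), which act in purine breakdown and guanine nucleotide synthesis and were higher under all 3 scalings.

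Around myoglobin, 8 of 14 tested globin and haem genes were lower and 4 higher, and at an equal total 1 was lower and 7 higher. The higher ones included Cygb, a globin of fibroblasts (wild-type mean 7.95 ± 1.52 FPKM, SD, n = 4, and 27.9 ± 4.25, n = 6, for DMD_ND), Hmox1, which breaks haem down (log2 2.56), and Hebp1 (1.09), a haem-binding protein. Alas1, the first enzyme of haem synthesis, was lower, at 48.2 ± 16.9 FPKM (SD, n = 4) in WT_ND and 14.5 ± 1.14 (n = 6) in DMD_ND (log2 -1.60, SE 0.24, adjusted p = 1.71e-05 by limma). Of 9 oxygen sensing genes 6 were lower and 2 higher, and 3 and 5 at an equal total, with Epas1 at -1.53, Hif1an at -1.84 and Egln1 at -1.36 the 3 with the smallest p. Centred on the fibre markers, Epas1 (-0.42, adjusted p = 0.0508 by limma) and Egln1 (-0.25, adjusted p = 0.0767) were no longer called. Slc6a6, the taurine transporter and the one tested relative of Slc6a8, was higher by 0.93. In DMD_KD against DMD_ND none of the 56 tested genes of these lists was called by limma. An unadjusted p under 0.05 was found for 16 of them, and for 1727 of all 12119 tested genes.

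In DMD_KD against WT_ND 27.3% of all tested genes were higher and 31.1% lower as deposited, and 6930 and 573 of 12119 at an equal total. The list counts were 2 higher and 6 lower of 9 for the creatine list, 4 and 5 of 11 for the purine nucleotide cycle, 4 and 3 of 9 for salvage, 4 and 7 of 14 for globins and haem, and 1 and 4 of 9 for oxygen sensing. At an equal total they were 3 and 3 for the creatine list, 6 and 4 for the cycle, 5 and 0 for salvage, 7 and 1 for globins and haem, and 5 and 3 for oxygen sensing. Without DMD_KD replicate 3 they were 2 and 6, 6 and 5, 5 and 3, 4 and 8, and 2 and 6 in the same order. The genes first by p were again Gatm (2.38), Opa1 (-1.23) and Vdac1 (-1.26) in the creatine list, with Ampd2 (1.17), Adk (-1.11) and Ada (1.02), the enzyme that removes adenosine, in the cycle list. Centred on the fibre markers Adk was not called here either (-0.45, adjusted p = 0.0644 by limma). Among adenylate kinases Ak6 was lower here too (-0.57), but its sign turned under both other scalings in both comparisons with WT_ND.

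**Figure D5:**
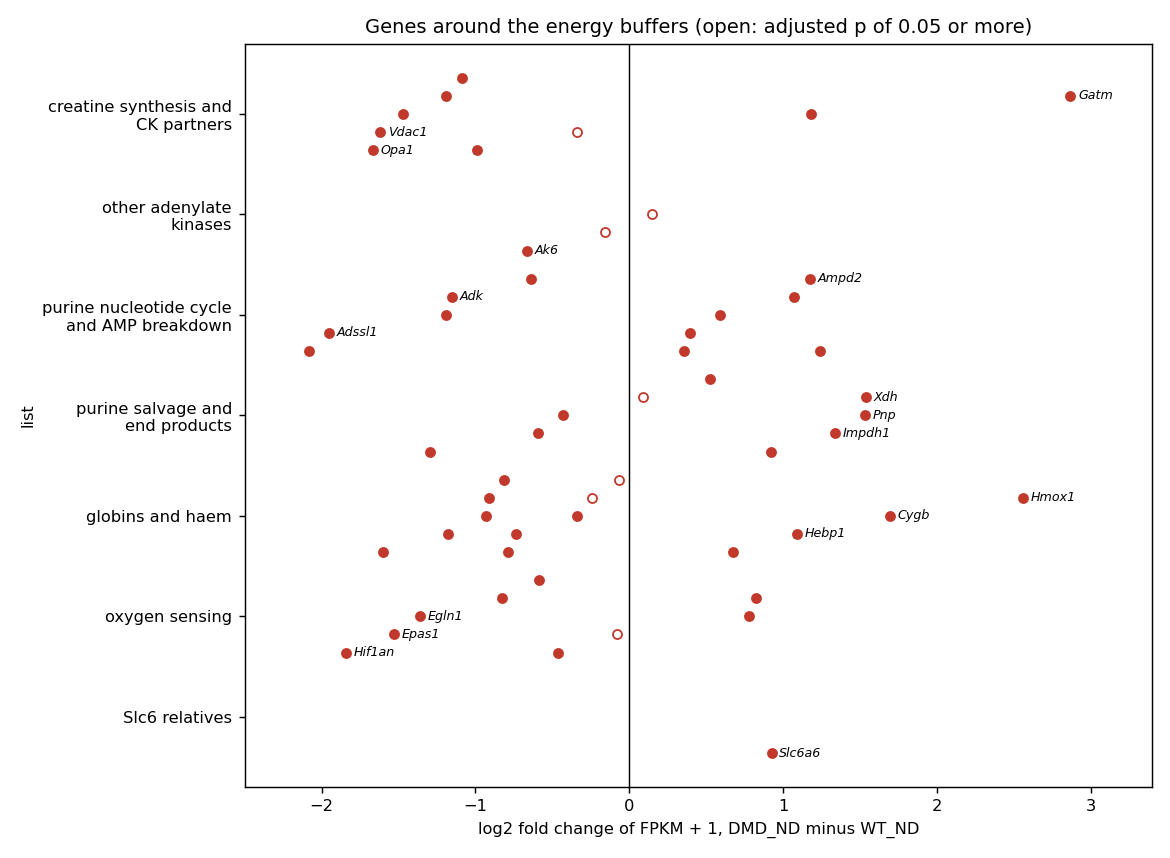
Log2 fold change of FPKM + 1 between DMD_ND and WT_ND (horizontal axis) for the tested genes of 7 lists around the energy buffers (vertical axis). Each point is 1 gene, filled where limma's adjusted p was under 0.05. The called genes with the smallest p of each list carry their names. Gatm lies farthest to the right, at 2.87.

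The genes whose levels followed each member most closely were found by the root mean square difference of centred log2(FPKM + 1) values over the 16 libraries, among the genes with a mean of at least 5 FPKM and a proper gene symbol in place of a clone or locus name (5678, or 5679 for Ak1). This is a description in which all points share their libraries and the genotype difference. Ckm was followed most closely by Actn3, the fast fibre actinin (0.12), Pygm, muscle glycogen phosphorylase (0.13), and Macrod1 (0.14), where the median gene differed by 0.82. Ckmt2 was nearest to Got1 (0.12), Me3 and St3gal2, and Mb to Ldhb (0.17), the lactate dehydrogenase subunit of oxidative fibres, Vgll2 and Pla2g12a. Close to Ampd1 were Cacng6 (0.13) and Nek9 (0.13), and Ak1 was nearest to Tmem233 (0.16), Fam78a and Pgp. Ckb was nearest to Ifi30 (0.21), Unc93b1 and Tmem176a, the first pair being genes of phagocyte lysosomes and endosomes. Ampd3 was nearest to Myog (0.34), the myogenic factor of differentiating muscle cells, then to Stk17b and Gm26330. Slc6a8, which varied least as deposited, was nearest to Tomm22 (0.09), Camta2 and Sec61a2.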

How the data were processed

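RNA sequencing of tibialis anterior from 4 WT_ND, 6 DMD_ND and 6 DMD_KD libraries was used as the deposited FPKM table, in which the authors give fragments per kilobase of gene length, scaled by library. No read counts were used as such: reads per gene were recovered here from the whole-number steps of the FPKM values (100% whole within a tolerance of 0.05), served only to state depth (17125084 to 28116085 reads per library), and showed that the library sizes behind the FPKM follow size factors. Tools named are HISAT2 2.0.5, featureCounts 1.5.0-p3 and the mRatBN7.2 build, per the submitters' processing notes. The sources used here do not give the strand setting.

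Values were tested with limma 3.58.1 (R 4.3.3) on log2(FPKM + 1), with all 16 libraries in 1 model (13 residual degrees of freedom), a mean-variance trend and robust moderation, over the 12119 genes that reached 1 FPKM or more in 4 or more libraries. P-values were adjusted by Benjamini-Hochberg and called under 0.05. The procedure was tried on simulated data with independent noise and few changed genes. The real libraries had far more changed genes, so that trial does not vouch for the calls reported here. Ratios between members were compared by exact two-sided permutation tests, adjusted over 18 comparisons. Alternatives were another pseudocount (0.1), other filters, equal totals, centring on 13 fast fibre markers, only the groups compared, a replicate block, library weights, medians, and leaving out each library. One alternative, using only members matched by symbol, was added after seeing the data.

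The members and gene lists were chosen with earlier results of these data known. Named genes are all 8 members, up to 3 called genes with the smallest p per pathway list and comparison, and the 3 genes most alike to each member, some of which are not reported here. Ak1 was matched by its description. Promoters are RefSeq's, build GRCr8.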

Additional observations from a re-analysis of the deposited data

Results flagged for a closer look

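In 6 of 42 groups of values tested, 1 library lay far from the others of its group, where chance gives about 2.1. The ratios among them are built from the same members and libraries, so the groups are not independent and 2.1 is only a guide. For Ckm, DMD_KD replicate 3 held 19679.9 FPKM. The same library held 834 FPKM of Mb and a log2 ratio of Slc6a8 to Ckm of -8.74. For Ampd3, WT_ND replicate 9 held 5.74 FPKM and DMD_KD replicate 10 held 11.6 FPKM, each above the rest of its group. The log2 ratio of Mb to Ckm in WT_ND replicate 3 was -3.25, above the other wild-type libraries. Chance marks about 1 in 20 groups.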

How the results depend on the processing

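The number of members called was 7, 0 and 7 in the 3 comparisons whichever library was left out. Of 18 ratio comparisons 5 were called, 5 to 10 when 1 library was left out, and 0 with medians in place of means (9 at an unadjusted p under 0.05, as with means). The labels state no pairing, and same-numbered libraries of different groups correlated at -0.66 to 0.41. Differently numbered libraries were not set beside them, so whether the numbers pair the samples was not tested. With a replicate block 5852, 0 and 5190 genes were called in place of 7967, 1 and 7068, and the fall of Ckm in DMD_KD against WT_ND was not called (-0.92, adjusted p = 0.105 by limma). With the replicate block DMD_KD differed from DMD_ND by 0.024 for Ckb and -0.040 for Mb, and from WT_ND by 0.0010 for Slc6a8, each the other sign from the reported value. With library weights 93 genes were called between the mutant groups, and 7 without DMD_KD replicate 9. In DMD_ND against WT_ND the weighted differences were -1.54 for Ckm, -1.74 for Ckmt2, -1.45 for Ak1, -0.94 for Ampd1 and -1.27 for Mb. They were 2.34 for Ckb and 1.36 for Ampd3, and all of these were still called by limma.

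Signs also turned under scaling. At an equal total Slc6a8 was 0.80 (DMD_ND against WT_ND), 0.64 (DMD_KD against WT_ND) and -0.16 (DMD_KD against DMD_ND), Mb was -0.24 between the mutant groups, and Ak6 was 0.28 and 0.12 against WT_ND. Centred on the fibre markers Slc6a8 was 0.91, 0.58 and -0.34, Mb -0.42 and Ampd1 -0.13 between the mutant groups, Ampd1 0.0014 in DMD_ND against WT_ND, and Ak6 0.45 and 0.10. Between the mutant groups Mb was -0.11 with library weights, and between -0.11 and 0.10 when 1 library was left out, being -0.11, -0.05 and -0.0093 without DMD_KD replicate 3, DMD_ND replicate 11 and DMD_ND replicate 7. Ckb was between -0.15 and 0.093, being positive (0.010, 0.027, 0.049, 0.061, 0.061 and 0.093) in 6 of these. The ratio of Ckmt2 to Ckm in DMD_ND against WT_ND was 0.049 with medians and -0.12 to 0.15 when 1 library was left out (0.0029, 0.05, 0.10 and 0.15 where positive). The cause was not tested.

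Between DMD_KD and WT_ND the oxygen sensing list had 5 calls, and 8 without DMD_KD replicate 3. Low reads limit Ampd3 and Ckb in WT_ND.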
